A study of Homo sapiens with 4 samples.

Results

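Members of the EGF receptor family were examined in Caco-2, a human colorectal carcinoma cell line used as a model of the intestinal epithelium. The group comprised 10 genes chosen by symbol, namely the receptors EGFR, ERBB2 and ERBB3, the ligands AREG, EREG, HBEGF, TGFA, BTC and EPGN, and the inhibitor ERRFI1. All 10 had a row among the 37515 Ensembl genes of the count table, and 7 of them carried enough counts to be tested. RNA was sequenced from 4 libraries of wild-type cells grown on transwell inserts. The unstimulated group (2 libraries) was taken at 0 h without cytokine, and the IFNγ group (2 libraries) was taken 3 h after 60 ng/ml of recombinant interferon gamma had been put into the basal compartment. Because the control cells were taken at 0 h, the cytokine and the 3 h that passed cannot be told apart. Both groups come from a single cell line, and the labels do not say whether same-group libraries came from separate cultures, so the p-values measure only the spread between these libraries, which may be technical.

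Receptors of this family sit in the epithelial membrane, pair up when a ligand binds, and switch on the RAS-MAPK and PI3K-AKT cascades that drive growth, migration and repair of the gut lining. Their ligands are made as membrane-anchored precursors and are released by metalloproteases such as ADAM10 and ADAM17. ERBB2 has no known ligand of its own and serves as a partner, ERBB3 has a weak kinase and signals through that partner, and ERRFI1 (also called MIG6) binds the EGFR kinase domain and blocks it. IFNγ is a cytokine made by T cells and natural killer cells that acts on the epithelium through its own receptor.

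Of the family genes, 4 lie in a single stretch of 545.5 kb on chromosome 4 of GRCh37, in the order EPGN, EREG, AREG and BTC. EREG spans 75230862 to 75254466 and AREG spans 75310853 to 75320722, both on the plus strand and 56.4 kb apart. A second copy of the AREG locus, AREGB (75480629 to 75490486), lies between AREG and BTC in this build, and 95.8% of the 50-base stretches of the AREG reference transcript also occur in AREGB transcripts. The handling of reads that match both copies is not stated, so the level of AREG is uncertain. The promoters of AREG and EREG, the family genes called below, are shown with that of their neighbor EPGN, which was close to silent. The sequences are RefSeq promoters of build GRCh38.p14, from 250 bases before to 50 bases after the annotated start, and the capitals mark a cAMP response element (TGACGTCA) or a TATA motif (TATAAA).
AREG (chr4:74444886-74445185, plus strand): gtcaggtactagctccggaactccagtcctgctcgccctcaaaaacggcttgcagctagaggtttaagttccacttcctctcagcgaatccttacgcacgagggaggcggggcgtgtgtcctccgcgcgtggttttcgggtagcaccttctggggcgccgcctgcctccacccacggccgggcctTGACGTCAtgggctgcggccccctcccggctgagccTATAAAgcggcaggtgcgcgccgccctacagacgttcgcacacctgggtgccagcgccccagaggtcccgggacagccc
EREG (chr4:74364895-74365194, plus strand): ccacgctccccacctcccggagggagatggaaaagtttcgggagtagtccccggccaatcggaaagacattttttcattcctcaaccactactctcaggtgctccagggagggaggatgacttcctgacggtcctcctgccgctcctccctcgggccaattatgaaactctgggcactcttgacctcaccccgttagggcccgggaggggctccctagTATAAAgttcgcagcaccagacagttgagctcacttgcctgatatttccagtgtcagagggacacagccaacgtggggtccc
EPGN (chr4:74308220-74308519, plus strand): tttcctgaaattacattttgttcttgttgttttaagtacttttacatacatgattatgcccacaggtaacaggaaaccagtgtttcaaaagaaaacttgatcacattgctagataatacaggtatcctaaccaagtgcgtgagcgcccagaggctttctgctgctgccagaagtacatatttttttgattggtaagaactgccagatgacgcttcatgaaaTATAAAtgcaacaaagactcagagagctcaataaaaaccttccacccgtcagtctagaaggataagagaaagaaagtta
A TATAAA match began 29 bases before the start in AREG, 32 in EREG and 29 in EPGN, and 11.5% of the 35116 promoters of this length in the RefSeq table hold one on either strand. AREG alone among the 9 members with a promoter entry (all but ERBB3) had TGACGTCA, beginning 65 bases before the start, against 1.85% of all promoters. The same windows of the 9 members were searched on both strands for ISRE (GAAA, any 2 bases, GAAA), the interferon-stimulated response element, and held no match, while 3.57% of all promoters held one. AP-1 (TGANTCA) matched in ERBB2 and in the second annotated promoter of EGFR, against 7.71% of all promoters, and TATAAA also occurred in that promoter of EGFR. None of the 9 matched a CArG box (1.29%). GC boxes (GGGCGG) matched in 6 members (EGFR, AREG, HBEGF, TGFA, BTC and ERRFI1) against 45% of all promoters, and κB motifs (GGG, any 5 bases, CC) matched in the same 6, against 58.7%. EGFR and TGFA have 2 annotated promoters each and counted as matched if either held the motif. The shares of all promoters count each promoter once. The second promoter of EGFR held neither a GC box nor a κB motif, and that of TGFA held no GC box. These matches describe letters in a short window.

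The libraries held 7171455 to 10365346 counts, so that 1 count corresponded to 0.0973 to 0.14 CPM (the count as a share of its library, scaled by TMM). All 12 markers of intestinal epithelium had at least 10 counts in every library. Fibroblast markers summed to 199 and 104 CPM in unstimulated and 179 and 137 CPM in IFNγ libraries. Most of this came from COL1A1, at 179 and 89.4 against 168 and 118 CPM. Of the 6 fibroblast markers, 4 had at least 10 counts in every library. Besides COL1A1 these were COL3A1 (117 and 57 against 53 and 60 counts), LUM (27 and 18 against 13 and 12) and PDGFRB (52 and 30 against 54 and 68). COL1A2 and DCN had at most 1 count. Leukocyte markers summed to 4.67 and 5.32 against 7.49 and 9.96 CPM. Most of that came from CD14, at 36 and 34 against 59 and 65 counts, while PTPRC was at 0 counts in 3 libraries and at 2 in the other. The epithelial markers CDX2, at 178 and 177 against 409 and 406 CPM, and SI, at 419 and 439 against 258 and 134 CPM, were called higher and lower. Among 10 genes known to be induced by IFNγ, used to check the labels, 7 were called higher and 10 of 10 had a positive log2 fold change, with IRF1 at 5.86. Calls required an adjusted p (Benjamini-Hochberg, quasi-likelihood test of edgeR) below 0.05 and an absolute log2 fold change above 1. By this rule 7.28% of the 14820 tested genes were called, of which 427 (2.88% of those tested) were higher and 652 (4.4%) lower after IFNγ. GC-rich genes tended to have larger log2 fold changes (Spearman rho 0.438 across 14445 genes, which are not independent replicates), and when a trend of GC content and transcript length was removed from each library the calls were 418 higher and 294 lower. With that trend removed, neither CDX2 nor SI was called.

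In this comparison, 2 of the 7 tested family members were called higher after 3 h of IFNγ, against 2.88% of all tested genes. The members called lower numbered 0, against 4.4% of all tested genes. The 2 called higher were the ligands AREG and EREG. HBEGF and ERRFI1 had higher values in both IFNγ libraries but did not pass the adjusted threshold. The 3 receptors had log2 fold changes between -0.17 and 0.21. The median log2 fold change of the 7 tested members was 0.61, against -0.007 over all tested genes. It was above 0 in 6 of the 7, and in 49.4% of all tested genes. Without the fold change threshold the same 2 members had an adjusted p below 0.05, both higher, as did 9.02% of all tested genes. TGFA, BTC and EPGN had at most 11 counts in any library and were not tested.

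**Figure D1:**
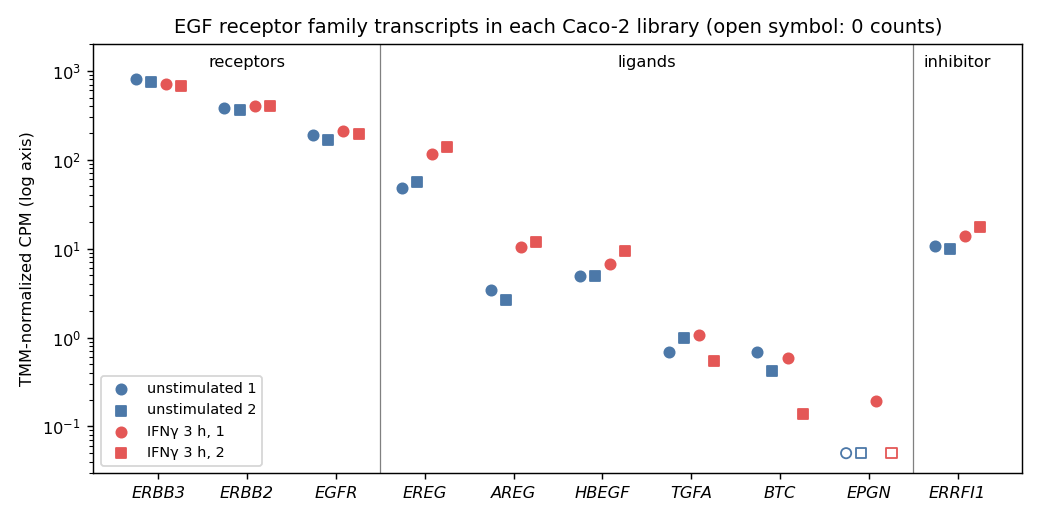
Each point is the TMM-normalized CPM of a family member in 1 library, on a log axis, with unstimulated libraries in blue and IFNγ libraries in red and open symbols for 0 counts. The IFNγ points of EREG and AREG sit above both unstimulated points by more than their own spread, while receptor points of both groups lie close together between 166 and 800.1 CPM.

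EREG encodes epiregulin, a ligand of EGFR and ERBB4. It was at 48.0 and 56.0 CPM in the unstimulated libraries and at 116 and 139 CPM in the IFNγ libraries. Both IFNγ values lay above both unstimulated ones. The unstimulated mean was 52.0 ± 5.68 CPM (SD, n = 2), and it rose 2.45-fold to 127 ± 16.4 CPM (SD, n = 2). For EREG the log2 fold change was 1.29 (SE 0.146, 95% interval 0.95 to 1.64, edgeR adjusted p = 0.00225). Between same-numbered libraries the differences were 1.27 and 1.31. EREG has a GC content of 36.1%, and with the GC and length trend removed its log2 fold change was 1.91.

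AREG encodes amphiregulin, a ligand of EGFR. It was covered by 35 and 19 counts without IFNγ and by 107 and 86 counts after it, which corresponded to 3.41 and 2.66 CPM and to 10.4 and 11.7 CPM. The groups did not overlap, and the gap between them was wider than the spread within either. The unstimulated mean was 3.03 ± 0.528 CPM (SD, n = 2), and it rose 3.65-fold to 11.1 ± 0.938 CPM (SD, n = 2), a log2 difference of 1.84 (SE 0.257, 95% interval 1.24 to 2.44, edgeR adjusted p = 0.00423). The row of its copy AREGB held 0 and 1 counts in the unstimulated and 3 and 1 in the IFNγ libraries, too few to be tested. Between same-numbered libraries the log2 differences of AREG were 1.55 and 2.05.

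HBEGF, the heparin-binding ligand of EGFR and ERBB4, was at 4.87 and 4.90 CPM in the unstimulated and at 6.71 and 9.41 CPM in the IFNγ libraries. The IFNγ values were both above the unstimulated ones, but they were far apart from each other. The log2 fold change was 0.71 (95% interval 0.076 to 1.34, edgeR adjusted p = 0.107), and HBEGF was not called. Its log2 fold change was 0.43 without the IFNγ replicate 2 library and 0.93 without the IFNγ replicate 1 library.

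The other ligands were near the limit of detection. TGFA, which encodes transforming growth factor alpha, reached 7 and 7 counts in the unstimulated and 11 and 4 in the IFNγ libraries. From the summed counts its ratio was 1.06, with an exact 95% interval of 0.477 to 2.37 that covers counting error only. BTC, which encodes betacellulin, had 7 and 3 against 6 and 1 counts, a ratio of 0.692 (interval 0.224 to 2.01). For both genes the groups overlapped, and a change of up to about the upper bound of either interval was not detectable at this depth. EPGN, which encodes epigen, had 0 counts in both unstimulated libraries and 2 and 0 in the IFNγ libraries, where a count of 0 allows a level of up to 0.292 to 0.42 CPM, depending on the library. The 4 ligand genes of the single stretch on chromosome 4 thus differed in their counts. EREG and AREG were higher after IFNγ, and BTC and EPGN had 7 or fewer counts in each library.

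Among receptors, EGFR was at 187 and 166 CPM in the unstimulated and at 212 and 196 CPM in the IFNγ libraries. The groups did not overlap, which also held for 62.4% of all tested genes in one direction or the other. The log2 fold change was 0.21 (95% interval -0.069 to 0.48, edgeR adjusted p = 0.254), and with the GC and length trend removed it was 0.40 (edgeR adjusted p = 0.0536). The adjusted p-value ran from 0.0024 to 0.615 over the alternatives, none of which called EGFR. Exons of EGFR overlap an antisense gene, EGFR-AS1, and strand use in the counting is not given, so reads of both cannot be told apart.

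ERBB2, the partner receptor also known as HER2, was at 385 and 362 CPM in the unstimulated and at 400.4 and 400.2 CPM in the IFNγ libraries. Its log2 fold change was 0.10 (95% interval -0.15 to 0.35, edgeR adjusted p = 0.543), and it was -0.092 with the GC and length trend removed, so its direction was not fixed. Exons of ERBB2 overlap those of MIEN1 and PGAP3 on the opposite strand, with the same limit.

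ERBB3 was at 800.1 and 754 CPM in the unstimulated and at 703 and 674 CPM in the IFNγ libraries, and was thus the tested member with a negative value. The log2 fold change was -0.17 (95% interval -0.42 to 0.070, edgeR adjusted p = 0.278). Over the alternatives it ran from -0.22 to -0.13, and none of them called ERBB3. Where every library was kept, the edgeR adjusted p-value ran from 0.0277 (trend removed and replicate number as a block) to 0.564 (no filter on low counts). The intervals of the 3 receptors lay between -0.42 and 0.48, within the fold change needed for a call. Both IFNγ values of ERBB3 lay below both unstimulated ones, as in 30.8% of all tested genes, and its exons overlap those of a further gene (ENSG00000257411) on the same strand.

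ERRFI1, the feedback inhibitor of EGFR, was at 10.6 and 9.81 CPM in the unstimulated and at 13.8 and 17.6 CPM in the IFNγ libraries. Both IFNγ values were above the unstimulated ones, and the log2 fold change was 0.61 (95% interval 0.14 to 1.08, edgeR adjusted p = 0.0714). Over the alternatives the log2 fold change ran from 0.41 to 0.77 and the adjusted p-value from 0.00754 to 0.369, and ERRFI1 was called in none of them. Its exons overlap a long non-coding RNA gene on the opposite strand. Of the 7 tested members, 6 had both IFNγ libraries above both unstimulated ones, and the same was seen in 31.6% of all tested genes.

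**Figure D2:**
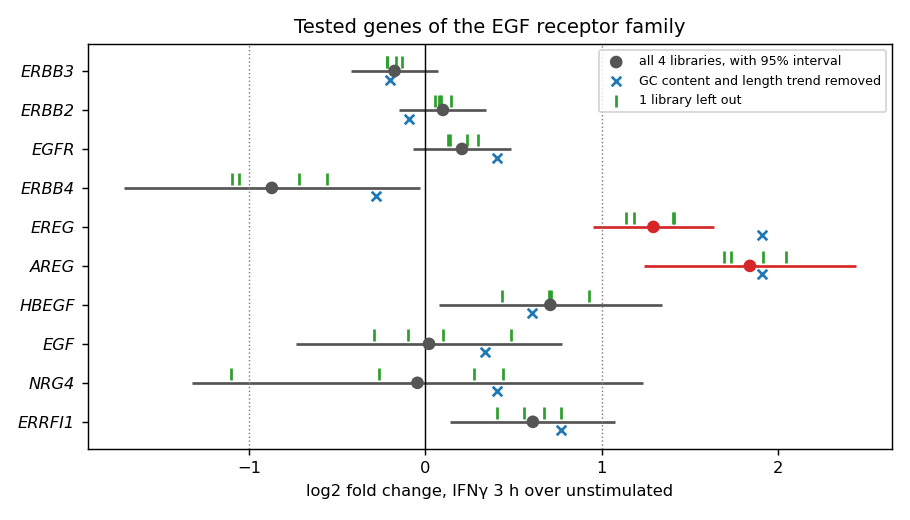
Log2 fold change of IFNγ 3 h over unstimulated for the 10 tested genes of the family, with 95% intervals as lines, called genes in red, values with 1 library left out as green ticks and values with the GC content and length trend removed as blue crosses. EREG and AREG lie beyond the dotted line at 1 under every setting drawn, and the receptors EGFR, ERBB2 and ERBB3 lie between -0.22 and 0.40.

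Transcript levels of different genes were compared per length, as CPM per kb of the reference transcript. In the unstimulated libraries the receptors stood first, with ERBB3 at 134 to 142, ERBB2 at 79.4 to 84.5 and EGFR at 16.8 to 18.9 CPM per kb. EREG had the highest ligand value at 10.4 to 12.1 CPM per kb, followed by AREG at 2.16 to 2.76 and HBEGF at 2.06 to 2.08. The handling of reads shared with AREGB is not stated, so the place of AREG among these levels is uncertain. ERRFI1 lay between EREG and AREG at 3.17 to 3.43 CPM per kb. None of these neighbors overlapped between libraries, whereas BTC and TGFA, both under 0.26 CPM per kb, could not be ordered.

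In the IFNγ libraries the order of these levels differed in that EREG, at 25.1 to 30.1 CPM per kb, stood above EGFR, at 19.8 to 21.4. AREG, at 8.43 to 9.51 CPM per kb, stood above ERRFI1, at 4.46 to 5.68, with the same limit on the level of AREG. ERBB3, at 120 to 125 CPM per kb, and ERBB2, at 87.82 to 87.85, kept the first places. Within each library ERBB3 was 1.69 times ERBB2 in both unstimulated libraries and 1.42 and 1.37 times ERBB2 in the IFNγ libraries. These ratios are descriptions and were not tested.

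Summed over the 6 ligands and EGF, the ligand level was 16.7 and 17.4 CPM per kb in the unstimulated and 37.7 and 44.7 CPM per kb in the IFNγ libraries. EREG made up 62.3% and 69.8% of that sum before and 66.5% and 67.4% after IFNγ, AREG 16.5% and 12.4% before and 22.3% and 21.3% after, and HBEGF 12.4% and 12.0% before and 7.54% and 8.93% after. The summed level of the receptors, with ERBB4, was 246 and 231 CPM per kb in the unstimulated and 235 and 228 in the IFNγ libraries. The receptor sums of the groups overlapped and the ligand sums did not. The ligand sums and all ligand shares include AREG, whose level is uncertain because of AREGB. In these bulk libraries a change in the number of cells that express a gene and a change in RNA per cell cannot be told apart.

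**Figure D3:**
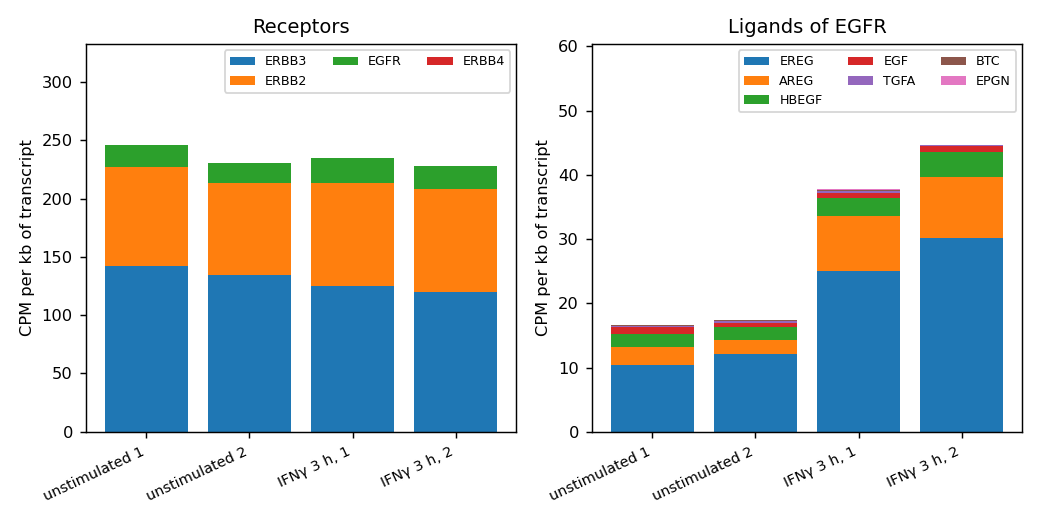
Stacked bars give the level of receptors (left) and EGFR ligands (right) in each library, in CPM per kb of transcript. The ligand bars reach 37.7 and 44.7 in the IFNγ libraries against 16.7 and 17.4 in the unstimulated ones, mostly through EREG, and the receptor bars stay between 228 and 246. The AREG part of the ligand bars is uncertain because of its copy AREGB.

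Other genes of the family gave 0 calls among the 3 tested, where 7.28% of all tested genes were called. ERBB4, a neuregulin receptor, was at 4.67 and 3.22 CPM in the unstimulated and 1.95 and 2.46 CPM in the IFNγ libraries. Its log2 fold change was -0.87 (95% interval -1.71 to -0.033, edgeR adjusted p = 0.129). The value of ERBB4 was -0.28 with the GC and length trend removed and -0.56 without the unstimulated replicate 1 library. EGF was at 6.72 and 3.92 against 5.16 and 5.87 CPM (log2 fold change 0.021), and NRG4, a ligand of ERBB4, at 2.04 and 1.40 against 2.43 and 0.819 CPM (log2 fold change -0.045). For EGF and NRG4 the groups overlapped and the direction changed when 1 library was left out. NRG1, NRG2 and NRG3, the other neuregulins, had at most 1 count in any library, so a change was not detectable.

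AREG was the called ligand with the largest change, and the genes of similar level that followed it most closely over the 4 libraries were CD300LF, ZNF35 and GAREM1. Their distances in centered log2 CPM were 0.186, 0.253 and 0.275 among 3171 candidates, and their log2 fold changes were 1.75, 1.70 and 2.14. A distance over 4 libraries rests on few points, and nothing was tested with it.

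Genes that release the ligands from the membrane gave 0 calls among 10 tested, where 7.28% of all tested genes were called, so few calls could be seen in a list of this size. Their median log2 fold change was -0.055, and 0.117 with the GC and length trend removed. ADAM10, a sheddase of EGF family ligands, was at 168 and 187 CPM in the unstimulated and 127 and 124 CPM in the IFNγ libraries (log2 fold change -0.50, edgeR adjusted p = 0.0228), under the fold change threshold, and its value turned to 0.19 with the GC and length trend removed. TIMP3, an inhibitor of these proteases, was at 76.7 and 73.7 against 95.03 and 107 CPM (log2 fold change 0.42, edgeR adjusted p = 0.0484). Over the alternatives that kept every library, its adjusted p-value ran from 0.00527 (edgeR, trend removed and replicate number as a block) to 0.0707 (DESeq2). ADAM17, the main sheddase of AREG, EREG and HBEGF, was not called either, at 44.6 and 38.1 against 34.1 and 32.1 CPM.

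Among 24 tested genes that relay the receptor signal, 0 were called higher and 1 lower (4.17%, against 4.4% of all tested genes called lower). Their median log2 fold change was -0.13, and 0.014 with the GC and length trend removed. The one called was BRAF, a kinase upstream of MEK, at 84.9 and 78.2 CPM in the unstimulated and 38.3 and 30.7 CPM in the IFNγ libraries. Its log2 fold change was -1.24 (edgeR adjusted p = 0.00287), and it was -0.85 with the GC and length trend removed, which ended the call. SHC1, an adaptor that links the receptors to RAS, was at 65.8 and 63.2 against 107 and 115 CPM (log2 fold change 0.78, edgeR adjusted p = 0.00515), under the fold change threshold.

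Of 22 tested genes for receptor turnover and inhibition, 1 was called higher and 1 lower, each 4.55% of the list, against 2.88% and 4.4% of all tested genes. The median log2 fold change of this list was -0.44, with 17 of 22 values below 0, against 7494 of the 14820 tested genes. With the GC and length trend removed the median was -0.17, against 0.032 over all genes in that fit. There 14 of 22 values were below 0, against 6725 of 14445 genes. PTPN1, a phosphatase that acts on EGFR and on JAK kinases, was at 65.5 and 69.3 CPM in the unstimulated and 161 and 185 CPM in the IFNγ libraries (log2 fold change 1.36, edgeR adjusted p = 0.00127). CD2AP, an adaptor of receptor endocytosis, was at 109 and 136 against 59.8 and 59.8 CPM (log2 fold change -1.03, edgeR adjusted p = 0.00391). Its call was lost without the unstimulated replicate 2 library (-0.87) and with the GC and length trend removed (-0.45). CBLB, a ubiquitin ligase of the receptors, was named after its value was seen and stood just under the fold change threshold at -0.98.

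Transcripts commonly used as a readout of MAPK activity gave 6 calls among 10 tested, all 6 higher, against the 2.88% of all tested genes called higher, and 5 calls with any 1 library left out. Their median log2 fold change was 1.29. DUSP6, a phosphatase that switches off ERK, rose from 55.8 and 60.7 to 220 and 290.4 CPM (log2 fold change 2.13, edgeR adjusted p = 0.000658). EPHA2, a receptor tyrosine kinase, rose from 20.6 and 21.3 to 87.4 and 121 CPM (2.31). SPRY4, a feedback inhibitor of receptor tyrosine kinase signaling, rose from 14.8 and 13.0 to 56.5 and 54.0 CPM (1.98). In all 3 genes the groups were far apart.

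CCND1, which encodes cyclin D1, rose from 207 and 225 to 492 and 583 CPM (log2 fold change 1.31), and PHLDA1 from 33.2 and 35.9 to 68.6 and 97.0 CPM (1.26, and 0.97 without the IFNγ replicate 2 library, which ended its call). DUSP4, another MAPK phosphatase, had 4 and 2 counts in the unstimulated and 20 and 11 in the IFNγ libraries (log2 fold change 2.30, edgeR adjusted p = 0.0244), and its call was lost without any one of the unstimulated replicate 1 (adjusted p = 0.106), unstimulated replicate 2 (0.0901) and IFNγ replicate 1 (0.0871) libraries. SPRY2 was at 21.3 and 23.1 against 40.7 and 41.5 CPM (log2 fold change 0.89, edgeR adjusted p = 0.00612), under the fold change threshold. EPHA4 (-0.29), ETV4 (0.31) and ETV5 (0.31) were not called.

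**Figure D4:**
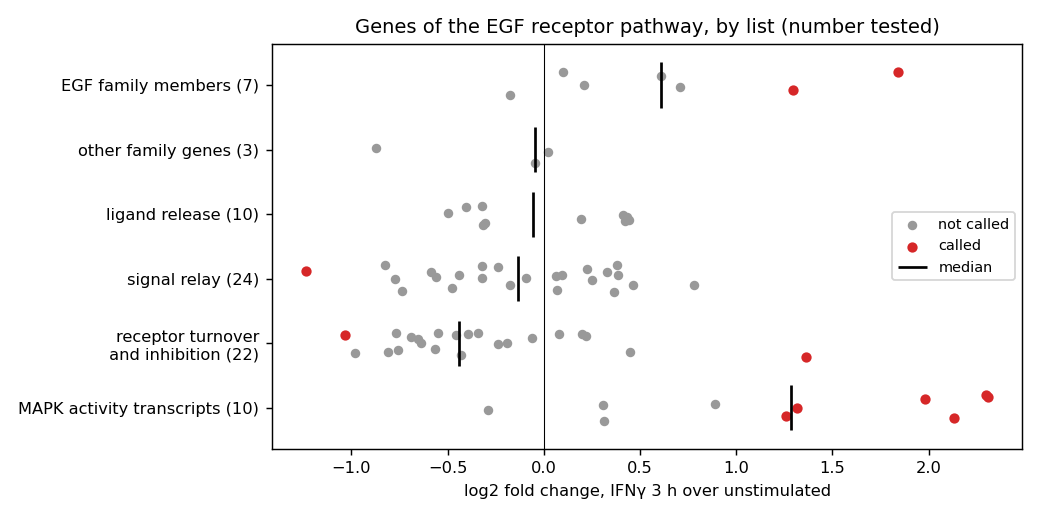
Log2 fold change of IFNγ 3 h over unstimulated for the tested genes of each list, 1 point per gene, with called genes in red and the list's median as a black bar (vertical jitter only separates points). Of the family members 2 of 7 and of the MAPK activity transcripts 6 of 10 were called higher, against 2.88% of all tested genes. The medians of ligand release and signal relay lie at -0.055 and -0.13 (0.117 and 0.014 with the GC and length trend removed, not drawn).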

How the data were processed

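The deposited values are raw read counts that the authors made per Ensembl gene for each of 4 Caco-2 libraries, with no normalization. The submitters' processing notes list HISAT 0.5.1 and HTSeq 0.6.1p1. The genome build, annotation and strand setting of these libraries are not given in the sources used here. Overlapping and near-identical genes are therefore uncertain. Symbols were paired with 96.5% of identifiers. Positions, GC content and lengths of reference transcripts came from GENCODE 44 mapped to GRCh37, which need not be the annotation used for counting.

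Counts were analyzed in R 4.3.3 with edgeR 4.0.16 (TMM scaling, default filter on low counts, quasi-likelihood test over 14820 genes, no block), and DESeq2 1.42.0 was an alternative. The SE was taken as |log2 fold change| over the root of the F statistic. The GC and length trend was a loess fit (span 0.5) per library. Values of same-numbered libraries used CPM with a prior count of 2. Intervals of summed low counts were exact and cover counting error only, and a floor of 3 counts was used for 0. The members, gene lists and alternatives were chosen with earlier results of these data known. Named were all family genes, up to 6 called genes per pathway list that moved alike in both same-numbered pairs (or the 2 with the smallest p where fewer than 2 were called), IRF1, and the nearest 3 genes to the called ligand with the largest change. ADAM17, CBLB and the MAPK transcripts that were not called were named outside this rule, after their values were seen. A low-count gene is named with its counts.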

Additional observations from a re-analysis of the deposited data

How the results depend on the processing

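AREG and EREG were the 2 members called, and both were called with DESeq2's size factors, with library size only, with DESeq2, without a filter on low counts, with at least 10 counts in every library, without a fold change threshold, with the GC and length trend removed, with the replicate number as a block (also with the trend removed), and with each library left out. The log2 fold change of AREG ran from 1.69 to 2.05 and that of EREG from 1.14 to 1.91. Fits with 1 library left out assume that the lone library of a group varies like the others. With the GC and length trend removed the signal relay list gave 0 calls and the turnover list 1, and with the replicate block as well 0 and 1. With 1 library left out the signal relay list gave 1 to 2 calls and the turnover list 2 to 4, the upper values without the IFNγ replicate 1 library, which added PIK3CA, CBLB and USP8. Without a fold change threshold calls numbered 2 for ligand release (1 higher, 1 lower), 9 for signal relay (1 higher, 8 lower), 10 for turnover (2 higher, 8 lower) and 28 over all pathway lists (11 higher, 17 lower, from 9 in all), against 9.02% higher and 11% lower of all tested genes. The direction of ERBB2 turned to -0.092, of ADAM10 to 0.19 and of NRG4 to 0.41 with the trend removed (-0.092, 0.19 and 0.38 with the block added). That of EGF turned to -0.026 with library size only. With 1 library left out EGF ran from -0.29 to 0.48 and NRG4 from -1.10 to 0.44. The cause was not tested.

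The labels do not say that same-numbered libraries share a culture or day. Their deviations correlated at 0.415 over genes, and with the replicate block the number of called genes was 1388, against 1079 without it. Over all genes 2963 were called without a fold change threshold, 712 with the trend removed and 1684 without the IFNγ replicate 1 library. The block called 2 family members and 9 genes of the pathway lists, as without it. Over 23 single genes and 271 refitted values, 251 kept direction and call, 11 reversed and 9 lost the call (4 genes), and no value was had for DUSP4, ERBB4 and NRG4 with DESeq2, whose default filtering gave no adjusted p-value, or for DUSP4 and NRG4 with at least 10 counts in every library. In the fit without a filter the prior degrees of freedom were infinite, so its p-values rest on a different footing. The 2 libraries per group and the low counts of TGFA, BTC and EPGN limit precision.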
